A study of Rattus norvegicus with 47 samples.

Results

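Blood taken 24 h after middle cerebral artery (MCA) occlusion was compared with blood taken from rats before occlusion. The comparison rested on 16 of the 47 arrays of the series, chosen by their time label: 8 arrays labelled 24 hours and 8 labelled control, which is the 0 h sample. All arrays came from 8 male spontaneously hypertensive rats (SHR) aged 16 weeks, each bled repeatedly, and every rat underwent transient thread occlusion of the MCA under isoflurane. The 0 h blood was drawn from the lateral tail vein immediately before anesthesia, and the 1, 2, 3 and 6 h samples after occlusion came from the same vein. The 24 h blood came instead from the heart, by puncture directly after a lethal dose of isoflurane. RNA from the pelleted cells of whole heparinised blood was hybridised to Affymetrix RaGene 1.0 ST arrays. No sham operated or unoccluded rats are analysed here, so time after occlusion, site of the draw, terminal anesthesia and repeated bleeding cannot be told apart.

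Whole blood RNA is a mixture. Neutrophils, monocytes, lymphocytes, platelets and young red cells (reticulocytes) each bring transcripts of their own, and a change in the number of a cell type moves its marker genes together. Ischemic stroke is known for an early release of neutrophils and a fall of circulating lymphocytes. Type I interferons, the antiviral cytokines, act through a receptor that activates transcription factors including STAT2 and IRF9, and these switch on a large family of interferon-induced genes. In bulk samples such as these, fewer cells of a type and less RNA per cell cannot be told apart.

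Levels are given as the authors' mean ± SD of the log2 signal over 8 arrays per time point (7 at 6 h), where 1 unit is a doubling. A gene was called changed when a moderated linear model test (limma) gave a Benjamini-Hochberg false discovery rate (FDR) below 0.05 over all 27596 probe sets. At 24 h, 8620 probe sets (31.2%) differed from 0 h, of which 4794 (17.4%) were higher and 3826 (13.9%) lower. Most differences were small: the median was 0.24 for those called higher and -0.36 for those called lower, and 54 rose and 57 fell by more than 1 unit. The median over all probe sets lay at 0.04, and when each time point was centred on its own median the split became 2749 higher and 4627 lower, which moved the higher share of calls from 55.6% to 37.3%. The directions of small differences therefore depended on this scaling. Genes with a large rise also varied more between rats at 24 h: the SD at 24 h exceeded that at 0 h in 72.5% of the probe sets that rose by more than 0.5, against 54.3% of all probe sets.

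Among probe sets with 1 gene symbol, the 12 largest rises were in genes of different kinds. Cd33, which encodes a sialic acid binding receptor of myeloid cells, rose from 8.12 ± 0.35 to 10.06 ± 0.46, a difference of 1.93 (SE 0.13, FDR 7.11e-15) or 3.82-fold. Fetub, which encodes the plasma protein fetuin B, rose from 7.10 ± 0.35 to 8.91 ± 0.64. Cpne8, a copine, stood at 6.51 ± 0.31 at 0 h and 8.12 ± 0.69 at 24 h. The SD ranges at 0 h and 24 h did not overlap for any of the 3. Prok2, the chemokine-like peptide prokineticin 2, rose by 1.54, Clec4b2, a C-type lectin receptor, by 1.60 and Tarm1, an activating receptor of myeloid cells, by 1.44. Serpinb1a, an inhibitor of neutrophil proteases, rose by 1.41, the kinase gene Bmx by 1.37, the protease inhibitor gene Wfdc15b by 1.37 and the taste receptor gene Tas2r126 by 1.65. A pair of maltase-glucoamylase-like genes on chromosome 4, LOC103690059 and LOC679818, rose by 1.57 and 1.56, and because they are alike in name and place their probe sets may share signal.

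All 12 of these genes except Fetub were lower at 24 h than at 6 h. Cpne8 had been at 10.36 at 6 h and was 2.24 lower at 24 h than then (FDR 3.03e-13), and Serpinb1a was 2.09 lower. Prok2 was 1.68 lower and Cd33 1.24 lower than at 6 h. Fetub was at 9.01 at 6 h and 8.91 at 24 h, a difference of -0.10 that missed the threshold (FDR 0.799).

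The 12 largest falls among probe sets with 1 gene symbol held several interferon-induced genes. Mx2, which encodes an antiviral GTPase, fell from 9.67 ± 0.14 to 7.46 ± 0.29, a difference of -2.21 (SE 0.10, FDR 1.16e-21), which is 4.63-fold lower. Rtp4, an interferon-induced transporter protein gene, fell by 1.75 and Mx1, the paralog and neighbour of Mx2 on chromosome 11, by 1.53. Oas1b, a sensor of double-stranded RNA, fell by 1.16, and the interferon-induced genes Ddx60, a helicase, and Irgm, a GTPase, by 1.21 and 1.18. The other large falls were of different kinds. Rnase6, a secreted ribonuclease, fell by 1.91, Igj, the joining chain of immunoglobulins, by 1.43, Eno3, an enolase, by 1.32 and Insig1, a brake on sterol synthesis, by 1.17. LOC102556096, named as a pyrin domain-containing gene, fell by 1.42 and LOC689230, named as similar to stefin A2, by 1.29. All of the 12 except LOC689230 were already below 0 h, past the threshold, in tail vein blood at 6 h. The differences then were -1.72 for Mx1, -1.57 for Ddx60, -1.07 for Oas1b, -2.33 for Rnase6 and -2.21 for Eno3. Only Rtp4 (-0.64), Igj (-0.41) and LOC689230 (-3.05) were called lower at 24 h than at 6 h, and Eno3 was 0.89 higher.

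**Figure D1:**
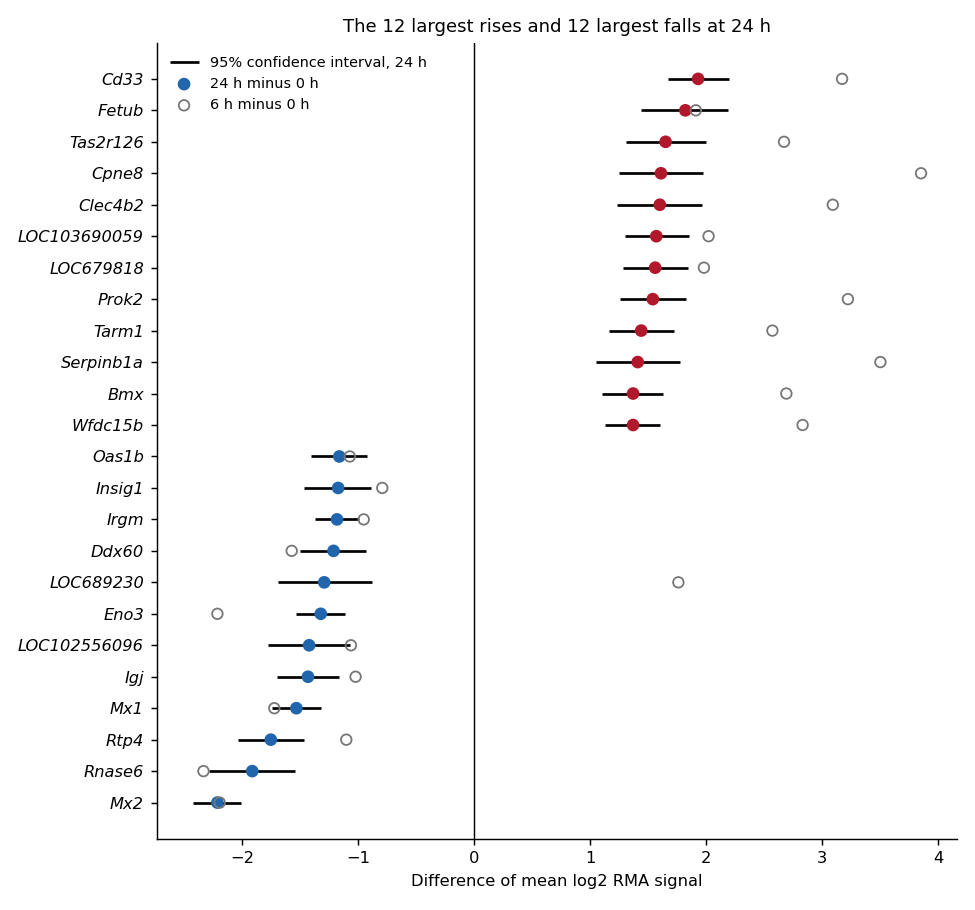
The 12 largest rises (red) and 12 largest falls (blue) among probe sets with 1 gene symbol, as the difference of the authors' mean log2 signal at 24 h from 0 h with its 95% confidence interval; open circles give the difference at 6 h. For all 12 rises the 6 h circle lies to the right of the 24 h point, for Fetub by 0.10 only, and LOC689230 lies above 0 at 6 h and at -1.29 at 24 h.

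To find what set 24 h apart, its level was compared with each of the 5 tail vein time points, and a probe set was counted when all 5 differences had 1 sign and the largest of the 5 p-values passed the FDR. Only 35 probe sets (0.127%) did, 13 higher (0.0471%) and 22 lower (0.0797%). Of the 33 genes of the type I interferon list that the array measured, 9 were among those lower at 24 h than at every earlier time. These were Rtp4, Oas2, Stat2, Ifi47, Oasl2, Isg15, Ifit2, Irf9 and Ifih1. Of the 9, Oas2, Stat2, Ifi47, Ifit2 and Ifih1 kept the call under all 7 alternatives tried, Irf9 under 6, Oasl2 under 5, Isg15 under 4 and Rtp4 under 3. With the spread taken from the compared time points alone instead of all 6, the lower set went from 22 to 9 probe sets and the higher from 13 to 3, and 10 of the 35 were shared. Outside the list, the lower set also held Zbp1, a sensor of Z-form nucleic acid, Adar, an RNA editing enzyme, Slfn4, a schlafen family gene, and Slc15a3, a lysosomal peptide transporter, which were named after their values were seen. All 4 are known as interferon-induced.

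Oas2, which like Oas1b encodes a sensor of double-stranded RNA, stood at 8.35 ± 0.22 at 0 h, reached 8.77 at 2 h, was at 7.93 at 6 h and ended at 7.32 ± 0.22 at 24 h. The difference from 0 h was -1.03 (SE 0.09, FDR 1.49e-11). Stat2 fell from 9.36 ± 0.13 to 8.46 ± 0.20 and Irf9 from 10.47 ± 0.11 to 9.99 ± 0.15, so both of these factors of the interferon response were lower. Ifi47, an interferon-induced GTPase, began at 10.89 ± 0.08, reached 11.34 at 3 h, was back at 10.90 by 6 h and fell to 10.05 ± 0.11. Ifih1, the RNA sensor MDA5, rose from 10.24 ± 0.11 to 10.95 at 2 h, was still at 10.47 at 6 h and fell to 9.77 ± 0.04. For Stat2, Irf9, Ifi47, Ifih1 and Oas2 the SD ranges at 0 h and 24 h did not overlap.

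Isg15 and Ifit2 turned direction. Isg15, a ubiquitin-like modifier, rose from 10.16 ± 0.29 to 10.78 at 6 h and was at 9.56 ± 0.22 at 24 h, 0.60 under 0 h. Ifit2, which binds viral RNA, rose from 10.10 ± 0.15 to 10.36 at 6 h and was at 9.57 ± 0.17 at 24 h. The direct comparison of 24 h with 6 h gave -1.21 for Isg15 (FDR 7.19e-11) and -0.79 for Ifit2 (FDR 5.44e-12).

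Over the whole list of 33 interferon genes, 24 were lower and 2 higher at 24 h than at 0 h (13.9% and 17.4% of all probe sets), with a median of -0.52 against 0.04 over all probe sets. The list's median had been between 0.08 and 0.11 at 1, 2 and 3 h and -0.25 at 6 h, and 15 of the genes were lower and 4 higher at 24 h than at 6 h (8.68% and 10.2% of all probe sets). The members differed in course. Mx2 had already reached 7.48 at 6 h and differed by -0.02 from then to 24 h. Irf7, a transcription factor that amplifies the response, differed by -0.13 from 0 h (FDR 0.28) and Ifit1 by 0.09 (FDR 0.224). Rsad2, the antiviral enzyme viperin, rose from 12.18 ± 0.13 to 12.56 ± 0.15 (FDR 1.21e-05), and Cmpk2, a nucleotide kinase, rose from 9.37 ± 0.19 to 9.79 ± 0.20 (FDR 0.000896). Rsad2 and Cmpk2 are neighbours on chromosome 6 (rn5, chr6:54375722-54388861 and chr6:54403775-54414586), were the only list members called higher than 0 h, and had both been below their 0 h level at 6 h.

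**Figure D2:**
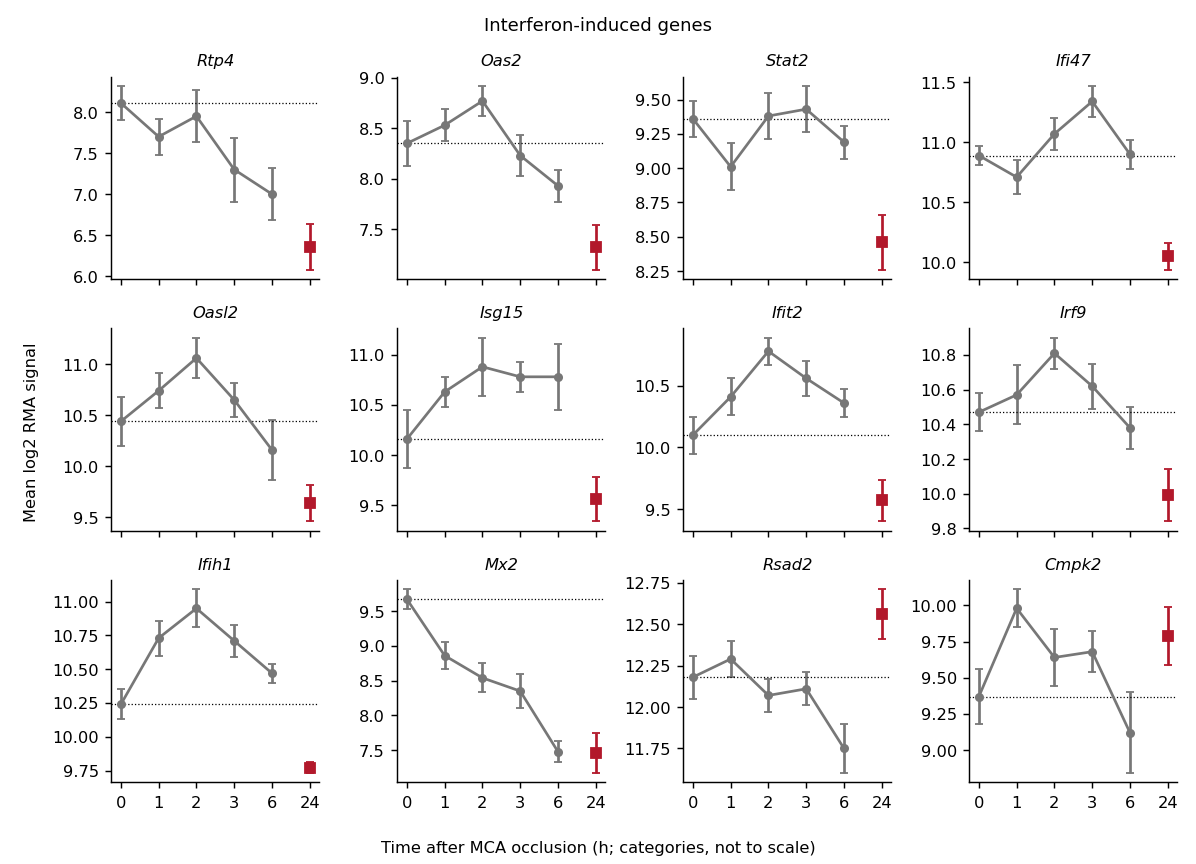
Authors' mean log2 signal of 12 interferon-induced genes at each time after MCA occlusion, drawn as categories and not to scale; bars are the authors' SD, grey circles the tail vein samples, the red square the 24 h heart sample and the dotted line the 0 h mean. The 9 genes from Rtp4 to Ifih1 lie lower at 24 h than at any earlier time, Mx2 lies beside its 6 h value, and Rsad2 and Cmpk2 lie above their 0 h mean.

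To show what regulatory sequence these genes carry, the promoter windows of RefSeq (GRCr8 build, 250 bases before to 50 after the gene start) were searched for GAAANNGAAA on either strand, where the reverse reads TTTCNNTTTC; these letters are the core of the element bound by the STAT2 and IRF9 complex. The motif was in 1312 of 33469 windows (3.92%). A window was found for 23 of the 33 interferon genes, under 80%, so nothing is drawn from these counts. It was in 8 of the 15 windows of members that fell, and also in all 6 windows of members that did not pass the FDR, Irf7 and Ifi27 among them. The windows of Ifih1, Oasl2 and Oas1b, which fell, and of Rsad2, which rose, held it and are shown as examples of both directions, 170 bases up to the start with the motif in capitals (in Oas1b a pair of overlapping matches). No match lay in the windows of Stat2, Irf9, Ifi47, Mx1 or Cmpk2, which says only that these letters are absent there. The windows are on the minus strand at chr3:67683969-67684138 (Ifih1), chr12:47383186-47383355 (Oasl2), chr12:41395853-41396022 (Oas1b) and chr6:48788121-48788290 (Rsad2).
Ifih1: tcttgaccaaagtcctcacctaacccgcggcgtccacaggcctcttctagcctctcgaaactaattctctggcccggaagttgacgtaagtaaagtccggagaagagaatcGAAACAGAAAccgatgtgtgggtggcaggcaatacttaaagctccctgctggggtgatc
Oasl2: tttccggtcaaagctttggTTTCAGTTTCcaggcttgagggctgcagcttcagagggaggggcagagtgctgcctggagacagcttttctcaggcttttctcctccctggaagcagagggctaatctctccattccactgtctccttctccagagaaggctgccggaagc
Oas1b: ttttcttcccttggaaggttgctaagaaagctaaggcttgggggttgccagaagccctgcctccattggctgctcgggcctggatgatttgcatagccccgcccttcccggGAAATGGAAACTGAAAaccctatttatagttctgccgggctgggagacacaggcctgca
Rsad2: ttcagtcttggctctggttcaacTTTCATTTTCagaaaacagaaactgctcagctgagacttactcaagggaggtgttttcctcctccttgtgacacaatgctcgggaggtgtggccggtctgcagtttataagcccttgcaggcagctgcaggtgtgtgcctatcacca

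Genes of antigen processing were lower as well. Of 12 genes of the immunoproteasome and class I list, 8 were lower and none higher (13.9% and 17.4% of all probe sets). Their median was -0.36. Psme2, a proteasome activator subunit, fell from 9.60 ± 0.20 to 8.76 ± 0.22, and the inducible catalytic subunit genes Psmb9, Psmb10 and Psmb8 fell by 0.67, 0.57 and 0.46. Psmb9 was 0.58 lower at 24 h than at 6 h, while Psmb8 and Psmb10 differed from 6 h by 0.01 and -0.02. B2m, the light chain of class I molecules, differed by 0.02 from 0 h (FDR 0.737).

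The remaining genes that stood apart below every earlier time included stefin genes. LOC689230, LOC100911790 and Stfa2l2 lie within a cluster on chromosome 11, belong to the stefin A family of cysteine protease inhibitors, whose copies are much alike, so their probe sets may read each other's RNA. LOC689230 rose from 9.20 ± 0.58 to 10.96 at 6 h and was at 7.92 ± 0.57 at 24 h. LOC100911790 fell 0.63 and Stfa2l2 0.56 below 0 h after having been above it at 6 h. The chromatin reader gene Spin1 showed the same turn in a pair of probe sets (-0.38 and -0.37) and so did LOC682571 (-0.36), which may share probes with it. Samsn1, an adaptor of leukocytes, and RGD1563091 were 0.30 and 0.34 below 0 h. Both Spin1 probe sets, LOC682571 and Samsn1 kept the call under 4 of the 7 alternatives and RGD1563091 under 3, while the 3 stefin genes kept it under 6. One probe set of the lower group had no gene symbol.

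Genes of red cell precursors rose. Of 25 erythroid genes measured, 19 rose above 0 h at 24 h and none fell (17.4% and 13.9% of all probe sets). Their median was 0.44, and 22 were higher than at 6 h (10.2% of all probe sets). Tfrc, the transferrin receptor that brings iron into erythroid precursors, rose from 8.16 ± 0.12 to 9.37 ± 0.37 (difference 1.21, SE 0.14, FDR 7.11e-09), after 7.59 at 6 h. Ank1, which encodes the ankyrin that fastens the red cell membrane to its skeleton, rose from 9.92 ± 0.18 to 10.92 ± 0.29. Both SD ranges were clear of those at 0 h. Sptb, a spectrin chain, rose by 0.62, Slc4a1, the anion exchanger band 3, by 0.58 and Rhag, an Rh-associated glycoprotein, by 0.47. Rhag had been 0.25 below 0 h at 6 h.

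Globin and Alas2 were not among the genes called. Hbb, the beta globin gene, stood at 13.50 ± 0.12 and 13.51 ± 0.13, and Alas2, the first enzyme of erythroid heme synthesis, at 13.39 ± 0.08 and 13.40 ± 0.07 (FDR 0.861 and 0.93). Their signals lay near the top of the array's range, and with time points centred on their medians both turned to -0.03 and -0.04.

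Tfrc, Slc25a37 and Eif2ak1 were higher at 24 h than at each of the 5 earlier times. Slc25a37, mitoferrin, which carries iron into mitochondria for heme synthesis, rose from 10.01 ± 0.24 to 10.97 ± 0.24, and Eif2ak1, the heme-regulated kinase that slows globin translation, from 9.57 ± 0.15 to 10.37 ± 0.30. The other genes in this group of 13 were of mixed function. Serpinb2, plasminogen activator inhibitor 2, rose from 5.13 ± 0.29 to 6.44 ± 0.47, Asns, asparagine synthetase, from 10.55 ± 0.19 to 11.52 ± 0.23 and Fam92a1 from 8.62 ± 0.11 to 9.63 ± 0.25. Cd93, a receptor of myeloid and endothelial cells, rose by 0.82, Ankle2 by 0.72 and Gch1, the first enzyme of tetrahydrobiopterin synthesis, by 0.70. Rmnd5a, Tax1bp1, Ppm1a and Anxa7 rose by 0.47, 0.42, 0.41 and 0.38. Of the 13, Tfrc and Asns kept the call under all 7 alternatives tried, Ankle2, Tax1bp1 and Anxa7 under 6, Slc25a37, Cd93 and Gch1 under 5 and Eif2ak1, Fam92a1, Rmnd5a and Ppm1a under 4, while Serpinb2 kept it under 4 of the 6 that tested it.

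**Figure D3:**
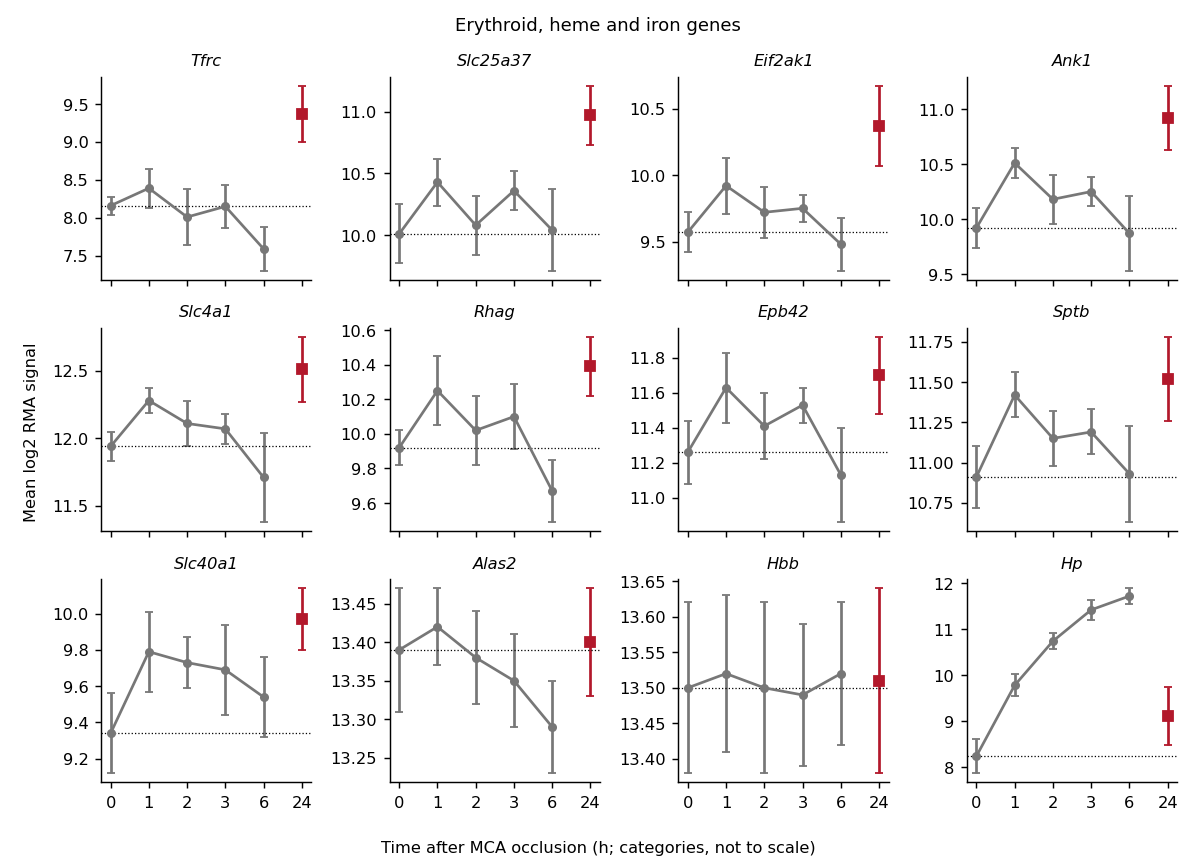
Authors' mean log2 signal of 12 erythroid, heme and iron genes at each time after MCA occlusion, drawn as categories and not to scale; bars are the authors' SD, grey circles the tail vein samples, the red square the 24 h heart sample and the dotted line the 0 h mean. Tfrc, Slc25a37 and Eif2ak1 lie above every earlier time at 24 h, Hbb and Alas2 lie within the SD of their 0 h mean, and Hp peaks at 11.72 at 6 h before returning to 9.11.

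Genes of the list for haptoglobin, heme and iron handling differed in course. Of these 20, 8 were higher than 0 h and none lower, against 17.4% and 13.9% of all probe sets. Among the 8 was Tfrc, which the erythroid list also holds. Slc40a1, ferroportin, the iron exporter, rose from 9.34 ± 0.22 to 9.97 ± 0.17 and was 0.43 above 6 h. Hp, haptoglobin, which binds free hemoglobin, was still 0.87 above 0 h but had been at 11.72 at 6 h, a difference of -2.61. Tf, transferrin, and Steap4, a metalloreductase, were each 0.71 above 0 h and also below 6 h, by 0.74 and 1.21. The ferritin chains Fth1 and Ftl1 each differed by 0.01 from 0 h.

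Platelet genes rose in part. Of 15, 10 were higher and none lower (median 0.37), against 17.4% and 13.9% of all probe sets. At an FDR of 0.01 only 5 were higher. F13a1, the A chain of clotting factor XIII, rose by 0.59 (FDR 2.75e-05), Selp, P-selectin, by 0.53 and Itga2b, the platelet fibrinogen receptor chain, by 0.49. Selp had been 1.40 above 0 h at 6 h and differed by -0.87 from then to 24 h (FDR 1.2e-08). It was the only list member lower than at 6 h, while 8 were higher (8.68% and 10.2% of all probe sets). Pf4, platelet factor 4, differed by 0.04 (FDR 0.519) and Ppbp, its neighbour among platelet chemokines, by 0.30 (FDR 0.0278). The medians of the erythroid and platelet lists had also been 0.30 and 0.32 at 1 h, in tail vein blood, and -0.07 and 0.00 at 6 h.

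In the labelled tissue, all 24 T cell, 19 B cell and 25 erythroid genes had a 0 h signal above the median probe set. So did 15 of 22 neutrophil, 17 of 21 monocyte and 6 of 15 basophil, mast cell and eosinophil genes. Lists that mark no single cell type did too, with all 62 ribosomal protein and all 33 interferon genes. Signals of different probe sets depend on their probes and are no measure of one gene against another. Lymphocyte genes were low at 24 h. Of 24 T cell genes 23 were lower and none higher (median -0.66). Of 19 B cell genes 16 were lower and none higher (median -0.47). Among all probe sets 13.9% were lower and 17.4% higher. Cd3e, a chain of the T cell receptor complex, fell from 10.18 ± 0.24 to 9.41 ± 0.32 and Cd3d, another, from 9.94 ± 0.23 to 8.96 ± 0.21. Trat1, an adaptor of that receptor, fell by 1.06 and Cd28, its main costimulator, by 0.92. Among B cell genes Cd79b, a chain of the B cell receptor, fell from 10.91 ± 0.31 to 10.16 ± 0.35, Ms4a1 (CD20) by 0.55, Fcer2 (CD23) by 1.00 and Blnk, an adaptor of the receptor, by 0.87. Both lists had moved part of the way back: the B cell median rose from -1.32 at 6 h to -0.47 and the T cell median from -1.04 to -0.66. Higher than at 6 h were 18 of 19 B cell genes and 18 of 24 T cell genes, against 10.2% of all probe sets. Single T cell genes differed in this: Cd3e was 0.47 above 6 h (FDR 0.00285) and Trat1 0.03 (FDR 0.947).

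Genes of cytotoxic cells and of class II presentation were low too. Of 19 natural killer and cytotoxic cell genes 11 were lower than 0 h and 2 higher (13.9% and 17.4% of all probe sets). Against 6 h, 2 were higher and 4 lower (10.2% and 8.68% of all probe sets). Klrk1, the receptor NKG2D, fell by 0.95, Gzma, granzyme A, by 0.94 and Prf1, perforin, by 0.86, while Klrb1b, an inhibitory lectin receptor, rose by 0.70. Of 12 class II presentation genes 11 were lower and none higher (median -0.41), against the same 13.9% and 17.4%. RT1-Da, a class II alpha chain, fell from 10.97 ± 0.12 to 10.13 ± 0.26 and differed by 0.04 from 6 h.

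Neutrophil genes were above 0 h but below 6 h. Of 22, 13 were higher than 0 h and 1 lower (17.4% and 13.9% of all probe sets). The median was 0.41, against 1.21 at 6 h. Compared with 6 h, 17 were lower and none higher (8.68% and 10.2% of all probe sets). Fpr1, the formyl peptide receptor, rose from 9.90 ± 0.50 to 11.14 ± 0.55, Il1r2, the interleukin 1 decoy receptor, from 8.68 ± 0.27 to 9.89 ± 0.62 and Mmp9, gelatinase B, from 8.57 ± 0.42 to 9.72 ± 0.65. S100a8 and S100a9, the calprotectin chains, rose by 0.71 and 0.78. Ngp, a granule protein made by immature neutrophils, went the other way, from 10.83 ± 0.36 to 9.93 ± 0.75 (FDR 0.00259), and was also 0.93 below 6 h. The granule genes Camp, Ltf and Lcn2 differed from 0 h by 0.00, 0.03 and 0.12.

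Of 21 monocyte genes 8 were lower and 4 higher, against 13.9% and 17.4% of all probe sets. Fcgr3a (CD16) fell from 10.22 ± 0.07 to 9.25 ± 0.32, Csf1r, the receptor for the monocyte growth factor, by 0.54 and Cx3cr1, the fractalkine receptor, by 0.52, whereas Vcan, versican, rose by 0.94 and Cd14 differed by -0.11 (FDR 0.621). Of 14 dendritic cell genes 6 were lower and 3 higher, the latter a share near that of all probe sets, with Siglech, a marker of plasmacytoid dendritic cells, 0.55 lower and Clec4f 0.80 higher. Among 15 genes of basophils, mast cells and eosinophils 3 were lower, led by Il5ra, the interleukin 5 receptor, at -0.97, and 4 were higher, led by Cd200r1 at 0.75.

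**Figure D4:**
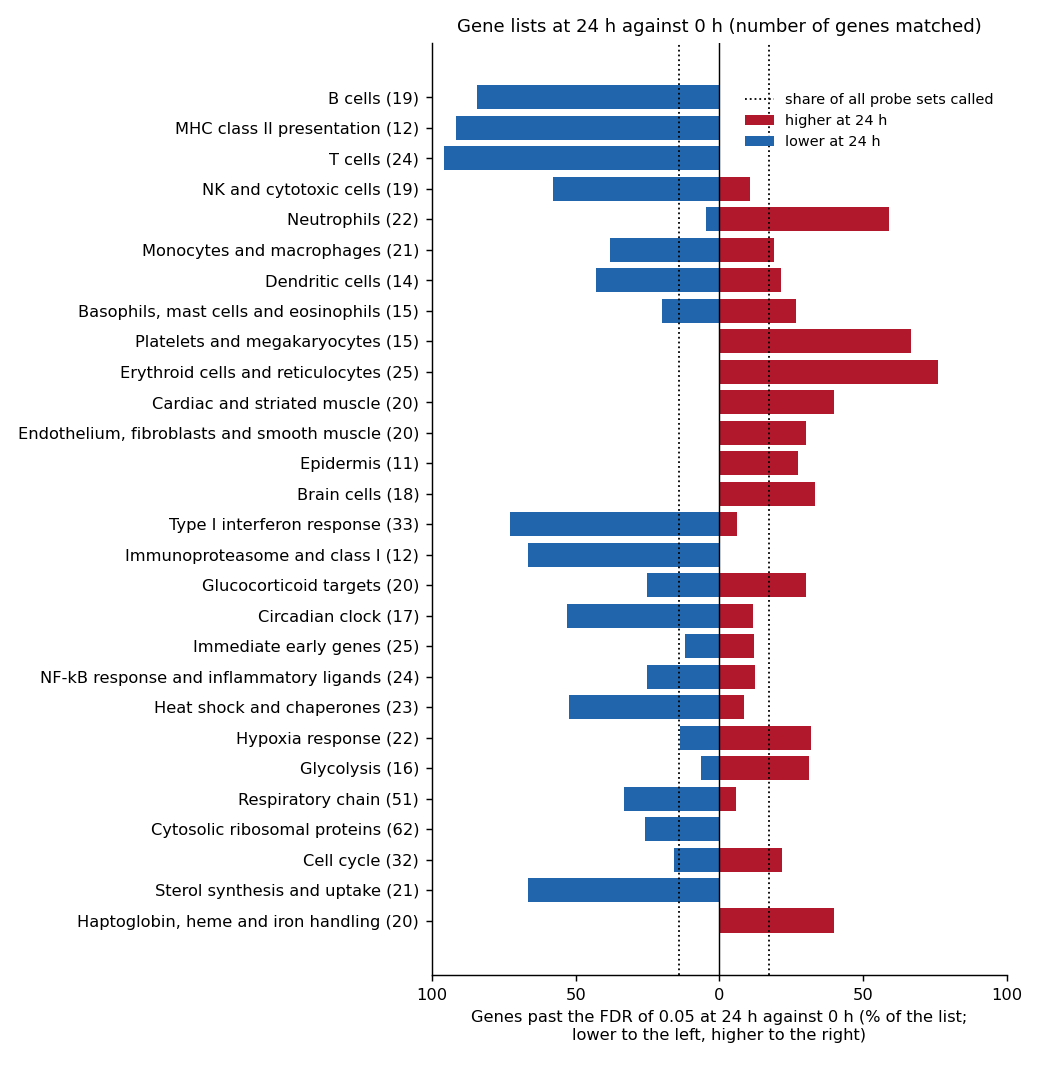
Share of each gene list called higher (red, right) or lower (blue, left) at 24 h than at 0 h, in percent of the genes measured, whose number stands in parentheses; dotted lines mark the share of all probe sets called in each direction. The lymphocyte, class II, interferon, immunoproteasome and sterol lists reach furthest to the left, and the erythroid, platelet and neutrophil lists furthest to the right.

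Because the 24 h blood came from the heart, genes of heart muscle and of other tissues were examined beside the blood lists. Of 20 genes of cardiac and striated muscle, 8 were higher and none lower, against 17.4% and 13.9% of all probe sets, and their summed linear signal went from 1820 to 2120, with the largest single part of the rise from Tnnc1. Nppa, the atrial natriuretic peptide, differed by 0.05 (FDR 0.466), Myl7, the atrial myosin light chain, by 0.05 (FDR 0.592) and Tnnt2, cardiac troponin T, by 0.03. Myh6 and Myh7, the cardiac myosin heavy chains, were 0.22 and 0.24 higher. Tnnc1, the troponin C of heart and slow muscle, was 0.85 higher than 0 h but had been at 9.58 at 6 h in tail vein blood and was 1.12 lower at 24 h. The list's median of 0.14 was the same at 6 h and at 24 h, none of its genes was higher at 24 h than at 6 h, and after quantile normalization 4 were called higher. The part of heart tissue in the other results was not tested.

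The lists for vessel wall and connective tissue, epidermis and brain gave similar small medians of 0.10, 0.08 and 0.14, beside 17.4% of all probe sets called higher and 13.9% lower. In the first, 6 of 20 were higher and none lower, with a summed signal of 1760 at 0 h and 1880 at 24 h. Its largest member was Tek, the angiopoietin receptor, at 0.81. Tek was also 0.70 higher than at 6 h (FDR 0.000366), the one gene of this list called higher than then, and its FDR for standing apart from every earlier time was 0.0523. Cdh5, the endothelial cadherin, differed by 0.12 (FDR 0.17). For epidermis 3 of 11 were higher and none lower (sums of 998 and 1110), and Krt10, a keratin, differed by 0.07. Of 18 brain genes 6 were higher and none lower (sums of 2750 and 3300). Gfap, the filament protein of astrocytes, rose from 6.89 ± 0.20 to 7.40 ± 0.21, whereas Snap25, a synaptic protein gene, differed by 0.01 and Mog, a myelin gene, by -0.10, neither past the threshold.

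Genes of sterol synthesis and uptake, which the factor SREBP2 controls together, were lower. Of 21, 14 were lower than 0 h and none higher (median -0.44), against 13.9% and 17.4% of all probe sets. Compared with 6 h, 9 were lower and none higher (8.68% and 10.2% of all probe sets). Insig1 fell from 9.42 ± 0.25 to 8.25 ± 0.33 (FDR 1.65e-08). Msmo1, Idi1 and Cyp51, enzymes of the pathway, fell by 0.96, 0.85 and 0.84, and Hmgcs1, the synthase at its start, by 0.71. Fdft1, squalene synthase, and Srebf2, which encodes SREBP2 itself, fell by 0.75 and 0.44. The list's median had been -0.35 at 1 h and -0.10 at 6 h, so the median lay low at 1 h, near 0 at 6 h and low again at 24 h.

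In the heat shock and chaperone list of 23, 12 were lower than 0 h and 2 higher (13.9% and 17.4% of all probe sets). Against 6 h, 8 were lower and 6 higher (8.68% and 10.2% of all probe sets). Pdia4, a protein disulfide isomerase, rose from 8.22 ± 0.23 to 8.51 at 6 h and fell to 7.71 ± 0.11, which was 0.80 below 6 h (FDR 8.5e-10). Manf, Creld2 and Sdf2l1, secretory pathway proteins of the same compartment, the endoplasmic reticulum, that were singled out after their values were seen, were 0.41, 0.33 and 0.44 below 0 h and 0.73, 0.61 and 0.54 below 6 h. Hsp90b1, another chaperone there, was 0.31 below 0 h and 0.33 below 6 h. Hspa5, Hyou1 and Pdia6, also of that compartment, were 0.56, 0.50 and 0.66 below 6 h, but their differences of -0.15, -0.17 and -0.14 from 0 h missed the threshold (FDR 0.271, 0.123 and 0.259). Hspe1, the mitochondrial chaperonin partner, fell by 0.74, and Hspa1a, the inducible heat shock protein 70, was 0.33 higher (FDR 0.015).

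**Figure D5:**
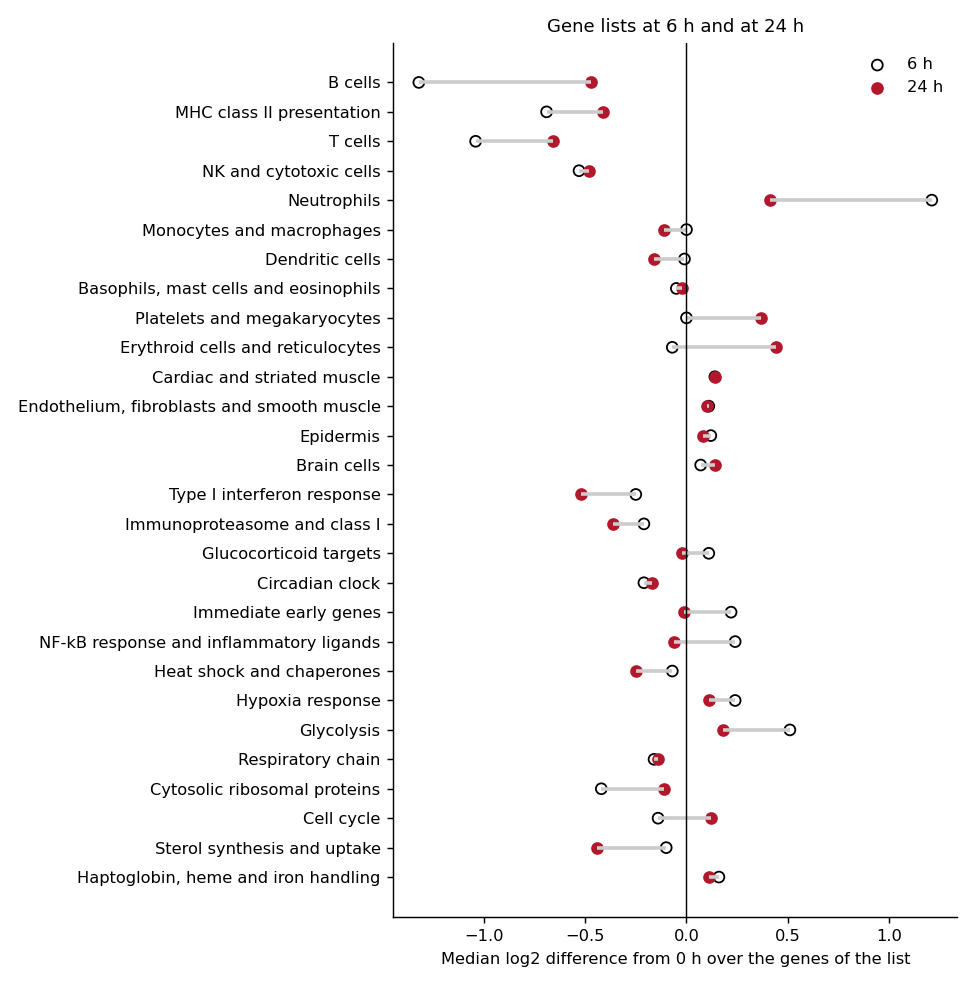
Median log2 difference from 0 h over the genes of each list at 6 h (open circles) and 24 h (red). The B cell, T cell and neutrophil lists lie closer to 0 at 24 h than at 6 h, and the interferon, sterol, erythroid and platelet lists lie further from 0.

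Of 17 clock genes 9 were lower and 2 higher (median -0.17), with fewer lower at an FDR of 0.01. Arntl, the core activator BMAL1, was 0.50 lower, Clock, its partner, 0.30 lower and Cry1, a repressor, 0.40 lower, while Usp2, a deubiquitinase, was 0.48 higher. Of 25 immediate early genes 3 were higher and 3 lower, smaller shares than the 17.4% and 13.9% of all probe sets. Fos differed by -0.14 (FDR 0.636) and Nr4a1 by -0.87 (FDR 1.51e-06). Of 24 NF-kB and inflammatory ligand genes 3 were higher and 6 lower: Il1b, interleukin 1 beta, rose from 11.23 ± 0.34 to 11.95 ± 0.19, and Ccl3, a chemokine, fell from 10.05 ± 0.57 to 9.31 ± 0.23. Glucocorticoid targets were split, 6 higher and 5 lower of 20, with Fkbp5, a feedback regulator of the receptor, 0.67 higher and Tsc22d3 at -0.06 (FDR 0.631).

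Of 16 glycolysis genes 5 were higher and 1 lower, and of 22 hypoxia genes 7 were higher and 3 lower, against 17.4% and 13.9% of all probe sets. Slc2a3, a glucose transporter in both lists, rose from 7.54 ± 0.24 to 8.75 ± 0.56, and Pfkfb3, an activator of glycolysis, by 0.75. Of 62 ribosomal protein genes 16 were lower and none higher (median -0.11), with fewer lower at an FDR of 0.01. Compared with 6 h, 29 were higher and none lower (10.2% and 8.68% of all probe sets). Of 51 respiratory chain genes 17 were lower and 3 higher, but 7 lower after quantile normalization. Atp5a1, a subunit of ATP synthase, was 0.54 lower. In the cell cycle list of 32, 7 were higher and 5 lower, shares near those of all probe sets, and 13 were higher than at 6 h. Pcna and Mcm3, of DNA replication, fell by 0.85 and 0.59, whereas Bub1 and Mki67, of mitosis and proliferation, rose by 0.57 and 0.38.

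The spread behind every test was pooled over all 6 time points from the authors' means and SDs, treating the arrays as independent although the same rats were bled throughout. Values of single rats were not used, so neither overlap between rats nor the workup batches could be examined.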

How the data were processed

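Whole blood RNA was measured on Affymetrix RaGene 1.0 ST arrays, and the authors deposited RMA normalized log2 signals for 27596 probe sets with their mean and SD at each of 6 time points. Groups and probe set positions came from the labels and from the file's own annotation (rn5). The file also holds 47 columns of single arrays, whose names match no sample's labels and which were not used, and the authors' comparisons (fold changes, p-values and an F-test), which were not used. The study names limma for its own tests and gives no version. The means stood for 8 arrays per time point and 7 at 6 h, and this number limits the precision; depth has no meaning for arrays.

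From the deposited log2 means, SDs and array numbers, the test of limma (version 3.58.1, R 4.3.3) was computed: the residual variance was pooled over the time points (41 degrees of freedom), moderated with squeezeVar (5.71 prior degrees of freedom) and used for 2-sided contrasts of 24 h with 0 h, with 6 h and with each earlier time, with Benjamini-Hochberg adjustment over all probe sets and an FDR of 0.05. On simulated data for 24 h against 0 h over 27596 probe sets, 91 of 100 changes of 0.5 were recovered. Of 100 changes of 1, 98 were recovered, with 5.03% false calls. For 24 h against each earlier time point these numbers were 74 and 98, with 0% false calls. Simulated data check the calculation and cannot show how many calls in the real data are false. A gene was represented by its probe set with the highest mean, and 20437 probe sets had 1 symbol.

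The text names the 12 largest rises and falls among probe sets with 1 symbol, the first 2 genes and the 3 largest changes past the FDR of each of 28 lists, and the 5 largest rises and falls among those standing apart at 24 h. Other genes were named after their values were seen. A few genes that this rule would name are not reported here. The members and lists were chosen with earlier results of these data known. Alternatives were another spread, no moderation, an intensity trend, centring, quantile normalization, a filter on low signals, an FDR of 0.01 and all probe sets of a gene. Promoter and miRNA sequences came from RefSeq (GRCr8).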

Additional observations from a re-analysis of the deposited data

Results flagged for a closer look

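For 20 probe sets named in the text, the level was past the threshold on opposite sides of 0 h at 6 h and at 24 h, and the direct comparison of the time points gave the difference between both changes. All values are differences of the authors' mean log2 signal.

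Most of these lay above 0 h at 6 h and below it at 24 h. Among interferon-induced genes, Isg15 went from 0.62 above 0 h to 0.60 below it, a difference between the changes of -1.21 (limma, FDR 7.19e-11). The difference was -0.79 for Ifit2, -0.70 for Ifih1 and -0.70 for Slfn4. Among the stefin genes it was -3.05 for LOC689230, -1.91 for LOC100911790 and -1.58 for Stfa2l2, and LOC689230 had been 1.76 above 0 h at 6 h. For both Spin1 probe sets it was -0.98 and for LOC682571 -0.97, and these may share probes. Samsn1 gave -0.78. The chaperone genes Pdia4, Manf and Creld2 gave -0.80, -0.73 and -0.61.

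The others lay below 0 h at 6 h and above it at 24 h. Tfrc, the transferrin receptor, went from -0.56 to 1.21, a difference of 1.78 (limma, FDR 1.45e-13), and Rhag, of the red cell membrane, gave 0.72. The neighbouring genes Rsad2 and Cmpk2 gave 0.81 and 0.66, and Rmnd5a and Anxa7 gave 0.76 and 0.67. What sets these courses was not tested, and the site of the draw differed between the time points.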

How the results depend on the processing

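At an FDR of 0.01, 2410 probe sets were higher and 2503 lower at 24 h than at 0 h, 1761 were higher than at 6 h, and 5 stood apart above and 13 below every earlier time. With the spread from the compared time points alone, 3 stood apart above and 9 below, and 10 of the 35 were shared with those reported. With time points centred on their medians, 2749 probe sets were higher than 0 h. Rtp4 and RGD1563091 stood apart under 3 of 7 alternatives, while Tfrc, Stat2, Ifi47, Oas2, Ifih1, Ifit2, Zbp1, Slfn4 and Asns did so under all 7. The other counts over all probe sets were within 1.5 times under each alternative run. Of 84 counts and medians of the gene lists, mostly small counts, 14 moved by over 1.5 times at an FDR of 0.01, 8 with centring, 4 with quantile normalization, 3 with the other spread and 1 with low signals left out. At the FDR of 0.01, 5 clock, 8 ribosomal protein, 6 respiratory chain and 3 cell cycle genes were lower, and 3 brain and 3 cardiac genes higher.

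Of 207 named gene differences, the sign of small ones turned with the scaling. With centring these became -0.04 for Alas2, -0.03 for Hbb, Fth1, Ftl1, Nfkbiz and Snap25, -0.02 for Hbb-b1 and B2m, -0.01 for Ltf and Tnnt2, and 0.00 for Ndufa1 and Rpl4. With quantile normalization they became 0.00 for Alas2, Krt10 and Ndufa1, 0.08 for Camp, -0.04 for Ltf, -0.01 for Rpl4, -0.06 for Snap25 and 0.01 for Tsc22d3. None of these was past the threshold as reported. With the lowest 25% of probe sets left out, the median of the basophil, mast cell and eosinophil list was 0.03. Clock, Hpx, Hspa1a, Lor, Ms4a2, Myh6, Ndufb8, Ppbp and S100b were among those that lost the call under centring, quantile normalization or the FDR of 0.01, and Mog gained one under centring and quantile normalization.

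No paired analysis was possible because the columns used carry no rat, so the replicate block was not run. Leaving out single arrays was not possible either, since only means and SDs were used.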

Other observations

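The 3 neighbouring microRNA genes Mir292, Mir291a and Mir290 on chromosome 1 (rn5, within 63524481 to 63525147), known from embryonic stem cells, were also higher at 24 h; they were picked after their values were seen. Mir292 went from 8.05 ± 0.40 to 9.18 ± 0.34 (limma, FDR 1.24e-06), Mir291a from 6.96 ± 0.24 to 7.53 ± 0.23 (FDR 0.000818) and Mir290 from 6.92 ± 0.30 to 8.01 ± 0.34 (FDR 1.41e-08). All 3 were lower than at 6 h, by 1.03, 1.08 and 0.65. The probe sets cover the hairpin genes, so these values are not levels of the mature microRNAs. Mature sequences in RefSeq (GRCr8), with the seed (bases 2 to 8) in capitals, are shown to identify them. For Mir292 and Mir291a only the 3p form is shown, and each also has a 5p form with another seed.
rno-miR-292-3p: aAGUGCCGccagguuuugagugu
rno-miR-291a-3p: aAAGUGCUuccacuuugugugcc
rno-miR-290: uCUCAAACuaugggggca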
